A study of Homo sapiens with 6 samples.

Results

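The mitochondrial genome carries the genes of 7 subunits of respiratory complex I (ND1, ND2, ND3, ND4, ND4L, ND5 and ND6) and 3 subunits of complex IV (COX1, COX2 and COX3). Their transcripts were followed here through a cap immunoprecipitation. Members were taken by gene name, with or without an MT- prefix, in the array files. All 10 genes were found, through 11 of the 50586 probes (10 of 36328 gene names), since ND4 had a pair of probes. The samples came from MOLT-4, a single established human line of T-cell acute lymphoblastic leukaemia. Of the 6 arrays, 3 were from mock cells, which had received the empty vector, and 3 were from cells transfected with NUDT16, a gene for an enzyme that removes caps from RNA. From each, 20 µg of total RNA was put through an immunoprecipitation with antibody against m3G (trimethylguanosine) and m7G (7-methylguanosine) caps, and the eluate was labelled with Cy3 and hybridised to a 1-colour Agilent array. The labels do not say whether the replicates were separate transfections, so p-values measure the spread between these arrays, which may be technical. No input RNA was analysed here, so less of a transcript in the cell and less of it carried into the eluate cannot be told apart.

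Complex I passes electrons from NADH to ubiquinone, and complex IV passes them from cytochrome c to oxygen. The mitochondrial subunits form the membrane core of both, and the remaining subunits are made from nuclear genes. Mitochondrial RNA polymerase copies each strand of the circular genome as a long precursor, which is cut mostly at the transfer RNAs that lie between the genes. ND6 is transcribed from the light-strand promoter, and every other gene named above from the heavy-strand side. The resulting messengers are not given an m7G cap. Most carry a short poly(A) tail, which ND6 RNA largely lacks.

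Of the 60-base probes, 6 are printed, 5′ to 3′ in the sense of the transcript as the array files give them. They show an RNA measured more than once, the neighbours on opposite strands, and the probe that the files place outside the mitochondrial chromosome.
ND4L, A_33_P3336696: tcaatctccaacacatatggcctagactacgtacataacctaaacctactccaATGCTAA
ND4, A_21_P0013791: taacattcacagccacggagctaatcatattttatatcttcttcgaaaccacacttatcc
ND4, A_23_P315252: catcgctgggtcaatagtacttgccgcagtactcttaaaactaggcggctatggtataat
ND5, A_23_P406928: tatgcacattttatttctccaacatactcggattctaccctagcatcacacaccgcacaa
ND6, A_23_P317056: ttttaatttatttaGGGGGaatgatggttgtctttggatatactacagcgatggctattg
COX1, A_23_P301925: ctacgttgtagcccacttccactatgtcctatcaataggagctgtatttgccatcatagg
The capitals in the ND4L probe mark the 7 bases that also belong to the start of the ND4 reading frame, since the genes overlap and are kept in a single messenger. The 3 probes of ND4L and ND4 therefore read the same RNA. The capitals in the ND6 probe mark a run of G (GGGGG, searched in the probe strand), which 1 of the 11 probes and 2.33% of all array probes hold. The ND6 probe has 16 G and 5 C, whereas the other 10 have 5 to 14 G and 13 to 20 C, the base bias between the strands. GC content ran from 35.0% to 46.7%, around the median of 43.3% over all probes of the array. No other probe of the array shared a stretch of 20 bases with any of them, on either strand.

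In hg19, the build named in the file headers, the ND5 probe lies on the mitochondrial chromosome at positions 13887 to 13946 (plus strand) and the ND6 probe at 14449 to 14508 (minus strand). The ND4L probe lies at 10708 to 10767, and the ND4 probes at 11083 to 11142 and 11432 to 11491. The files place ND1 at 3369 to 3428, ND2 at 4914 to 4973, COX2 at 7987 to 8046, COX3 at 9410 to 9469 and ND3 at 10200 to 10259, all on the plus strand. These mitochondrial genes have no introns. The COX1 probe is named for the mitochondrial COX1 transcript, yet the files place it on chromosome 1 at 567567 to 567626, in a nuclear copy of mitochondrial DNA. Signal from the mitochondrial gene and from that copy cannot be told apart. Whether the other probes also match nuclear copies was not tested, since no genome was searched.

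The arrays differed in what they detected. Between 39.3% and 51.1% of the 58717 spots for cell RNA were well above background on the mock arrays, against 42.3%, 14.6% and 52.0% on NUDT16 replicates 1, 2 and 3. Unless they are called unscaled, values below are log2 intensities minus the log2 of the array's own 75th percentile. On NUDT16 replicate 2 that percentile is an intensity of 8.57, among spots at background, against 91.7 to 359 on the other 5 arrays. Neither of the 2 probes for NUDT16 was well above background on any array, so they did not check the labels. The probe of its pseudogene NUDT16P1 read -4.71, -4.37 and -5.72 in mock and 2.63, 1.43 and 2.13 in NUDT16, higher on the arrays labelled NUDT16. Whether this probe detects the transfected gene was not tested. Of 11 T-lymphoblast markers, 7 were well above background on all 6 arrays, among them CD3D, LCK, DNTT and CD4, and none was below it throughout. Of 10 markers of other cell types with a probe, 5 were not well above background on any array, and 2 (CD79A of B cells and KRT8 of epithelia) were on all 6. A marker was counted on all 6 arrays if any of its probes was. The second CD4 probe was well above background on 1 array, and the further KRT8 probes were on 0 and 5. Each slide held the mock and the NUDT16 array of 1 replicate number and was scanned on its own, so slide and scan follow the number, and same-numbered arrays are called a pair.

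All 11 mitochondrial probes were measurable in the eluate. Each was well above background on all 3 mock arrays, and 10 of them on all 6 arrays. The exception was the ND4 probe A_21_P0013791 on NUDT16 replicate 2. All 11 passed the filter on dim probes in the mock group, and 10 did so in both groups. Their summed intensity made up 0.307%, 0.231% and 0.409% of that of all probes in mock. In NUDT16 the shares were 0.370%, 0.0864% and 0.362%. NUDT16 replicate 2 was thus below the 5 other arrays, and the groups overlapped. Because probes hybridise with different strength, no level of one gene is set against that of another.

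**Figure D1:**
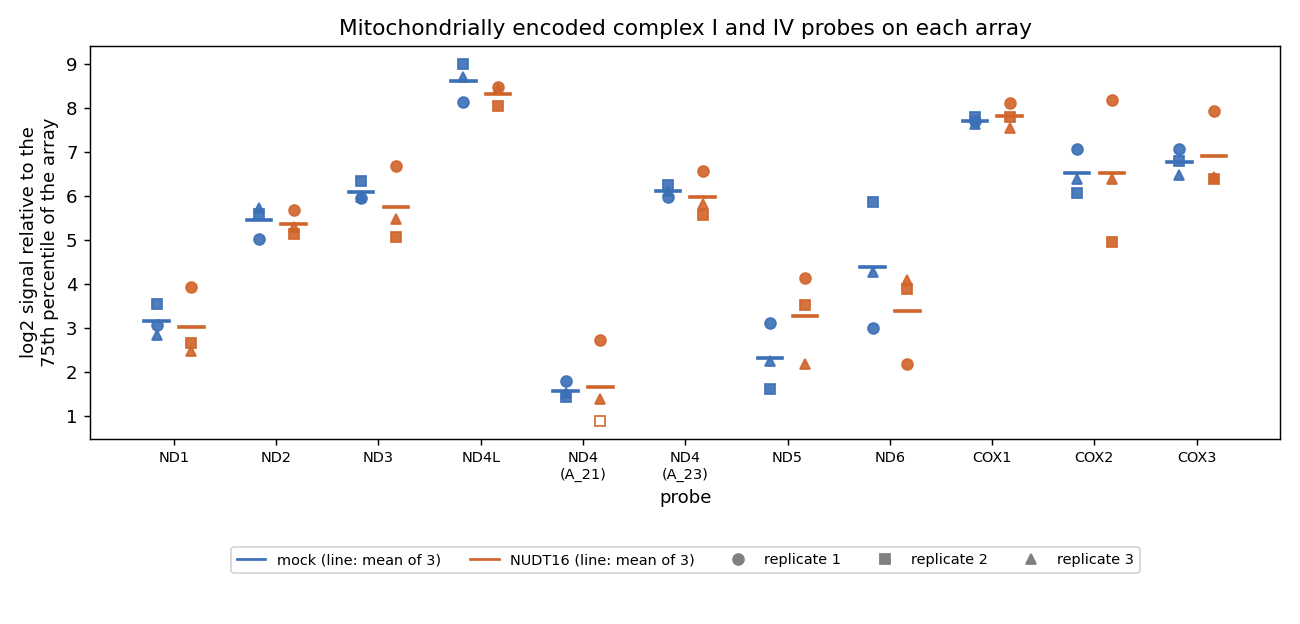
Scaled log2 signal of each of the 11 probes (x axis) on each array (points, shaped by replicate number; blue mock, orange NUDT16; lines are means of 3 arrays). The hollow square is the ND4 probe A_21_P0013791 on NUDT16 replicate 2, where it was not well above background. The groups overlap for every probe, and ND6 has the widest spread among mock arrays.

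The mock arrays differed least in COX1 and most in ND6. COX1 read 7.70, 7.80 and 7.63 on mock replicates 1, 2 and 3, an SD of 0.09 that only 1.19% of the 17765 tested probes undercut. Both ND4 probes had mock SDs of 0.19 and 0.14. Over these 10 probes the mock SD ran from 0.09 to 0.75, the highest being ND5, and the median over all tested probes was 0.66. ND6 had a mock SD of 1.43, larger than that of 97.2% of tested probes. Among NUDT16 arrays COX2 spread most, with an SD of 1.62 that exceeded 93.9% of tested probes, and ND6 had 1.05.

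Among the complex I genes on the heavy-strand side, ND1 and ND2 encode core membrane subunits, that of ND1 near the junction with the peripheral arm. ND1 read 3.05, 3.54 and 2.84 in mock replicates 1, 2 and 3 and 3.93, 2.64 and 2.48 in NUDT16. ND2 read 5.01, 5.58 and 5.72 in mock and 5.68, 5.14 and 5.28 in NUDT16. In both genes NUDT16 replicate 1 was above its mock partner and the other NUDT16 arrays were below theirs. ND3, a small core subunit, read 5.94, 6.34 and 5.98 in mock and 6.68, 5.06 and 5.48 in NUDT16, with the same signs within pairs. The fitted differences, NUDT16 minus mock, were -0.13 (SE 0.62) for ND1, -0.07 (SE 0.57) for ND2 and -0.35 (SE 0.62) for ND3.

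ND4L and ND4 encode subunits of the membrane arm, ND4 being one of the proton-pumping units. ND4L read 8.14, 9.0 and 8.71 in mock and 8.47, 8.04 and 8.43 in NUDT16. The ND4 probe A_23_P315252 read 5.96, 6.24 and 6.11 in mock and 6.56, 5.57 and 5.81 in NUDT16. Its companion A_21_P0013791 read 1.78, 1.42 and 1.51, against 2.72, 0.88 and 1.37, where 0.88 is a value at background. The 3 probes of this RNA had scaled differences of the same sign within each pair. These were 0.33, 0.60 and 0.94 in pair 1, -0.97, -0.67 and -0.54 in pair 2, and -0.28, -0.29 and -0.13 in pair 3, in the order ND4L, A_23_P315252, A_21_P0013791. Without scaling, those of pair 1 were -0.02, 0.24 and 0.58 in that order, whereas pairs 2 and 3 each kept a common sign. The fit to the scaled values gave -0.31 (SE 0.58), -0.12 (SE 0.58) and 0.09 (SE 0.63), and each of the 3 was smaller than its error.

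ND5 and ND6 adjoin each other on opposite strands, and their fitted differences were the largest of the 11 in either direction. ND5, a proton-pumping subunit, read 3.1, 1.61 and 2.24 in mock (mean 2.32 ± 0.75, SD, n = 3) and 4.12, 3.52 and 2.17 in NUDT16 (3.27 ± 1.0, SD, n = 3). ND6 read 3.00, 5.86 and 4.26 in mock (4.37 ± 1.43, SD, n = 3) and 2.18, 3.89 and 4.09 in NUDT16 (3.38 ± 1.05, SD, n = 3). ND5 was higher in NUDT16 in pairs 1 and 2, and ND6 was lower there, while in pair 3 both lay close to their partners. The groups overlapped for both genes. The difference was 0.95 for ND5 (SE 0.68, limma adjusted p 0.999) and -0.99 for ND6 (SE 0.79, limma adjusted p 0.999). Blocking on the replicate number brought the SE to 0.43 for ND5 and 0.41 for ND6. ND6 then had an unadjusted p of 0.0479 and ND5 of 0.0627, with an adjusted p of 0.482 for both in limma. ND6 was 1 of 11 members at an unadjusted p under 0.05 in that fit, where 7.96% of all tested probes were.

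The contrast of ND5 with ND6 on the same array was examined after their values had been seen. ND5 minus ND6 came to 0.10, -4.25 and -2.02 in mock and to 1.94, -0.37 and -1.92 in NUDT16. It was higher in NUDT16 in 3 of 3 pairs, by 1.85, 3.88 and 0.10. The mean difference was 1.94, and since the genes were chosen for this contrast it is a description. Without mock replicate 2 the fitted difference of ND6 was -0.25 and that of ND5 was 0.60. Without NUDT16 replicate 1 they were -0.38 and 0.53.

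ND6 was also set against the mean of the 9 other probes measured on all 6 arrays, which stayed between 5.46 and 6.63. ND6 minus that mean came to -2.89, -0.03 and -1.53 in mock and to -4.45, -1.57 and -1.47 in NUDT16. Its lowest values were on both arrays of replicate 1, and its highest was on mock replicate 2. Within pairs it differed by -1.56, -1.54 and 0.06. The mean difference was -1.01 (exact two-sided permutation p = 0.5). Swapping arrays only within pairs, a test added after the data were seen, also gave an exact p of 0.5. Neither test could reach 0.05, their smallest p being 0.1 and 0.25.

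**Figure D2:**
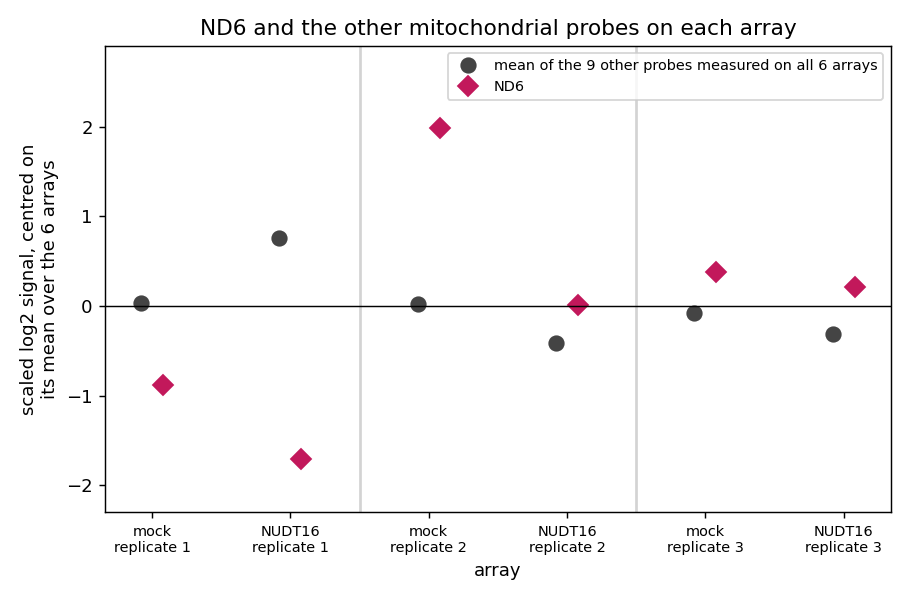
Scaled log2 signal, centred on its mean over the 6 arrays, of ND6 (diamonds) and of the mean of the 9 other probes measured on all 6 arrays (circles), by array, with vertical lines between the pairs. ND6 ranges from -1.70 on NUDT16 replicate 1 to 1.98 on mock replicate 2, whereas the mean of the others ranges from -0.41 to 0.76.

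The complex IV genes encode the catalytic core of the oxidase, COX1 holding the oxygen-reducing centre and COX2 receiving electrons from cytochrome c. COX1 read 7.70, 7.80 and 7.63 in mock and 8.10, 7.80 and 7.54 in NUDT16. COX2 read 7.07, 6.06 and 6.39 in mock and 8.18, 4.95 and 6.39 in NUDT16, so the NUDT16 arrays held both its highest and its lowest value. COX3, which binds to that core, read 7.06, 6.79 and 6.46 in mock and 7.92, 6.39 and 6.43 in NUDT16. Differences were 0.11 (SE 0.56) for COX1, 0.00 (SE 0.77) for COX2 and 0.14 (SE 0.63) for COX3. The mean of the complex IV probes minus that of the 6 complex I probes other than ND6 measured on all 6 arrays differed by 0.09 between groups (exact two-sided permutation p = 0.9, smallest possible 0.1), with an exact p of 0.75 when arrays were swapped only within pairs (smallest possible 0.25).

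None of the 11 mitochondrial probes was called. In limma with Benjamini-Hochberg adjustment over 17765 probes, 1 probe passed 0.05 (0.00563%), that of NUDT16P1. Of the mitochondrial probes 0 passed, and each adjusted p was 0.999. None had an unadjusted p under 0.05 (0 of 11, against 0.0844% of all tested probes). Of the 11 differences 5 were above 0 and 6 below, with a median of -0.07, beside -0.02 over all tested probes. For the 10 members measured on all 6 arrays it was -0.1, beside 0.25 over all probes so measured. The groups overlapped for all 11, and were apart for 1.37% of all tested probes. With the replicate block 0 members were called as well, against 0.00563% of all tested probes. With replicates 1 and 3 alone and the block, 0 members were called, against 2.83%. The lowest limma adjusted p of a member was 0.195 there (COX2, difference 0.56). That fit gave every member the same SE of 0.26, so its p-values follow the size of the difference, not each probe's own spread. The 95% intervals of the fit without the block bound what was measured there. Over the 11 probes they reached from -2.69 (ND6) to 2.42 (ND5), and the narrowest, that of COX1, from -1.11 to 1.32. In that fit, differences of 2-fold were therefore within the interval of every probe in one direction at least. With the replicate block, no 2-fold difference was within the intervals of COX1 (-0.61 to 0.82), ND2 (-0.91 to 0.77) or COX3 (-0.70 to 0.99). Nor was one within those of the ND4 probes A_23_P315252 (-0.97 to 0.73) and A_21_P0013791 (-0.81 to 0.99). For the other members it stayed within the interval in one direction at least.

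**Figure D3:**
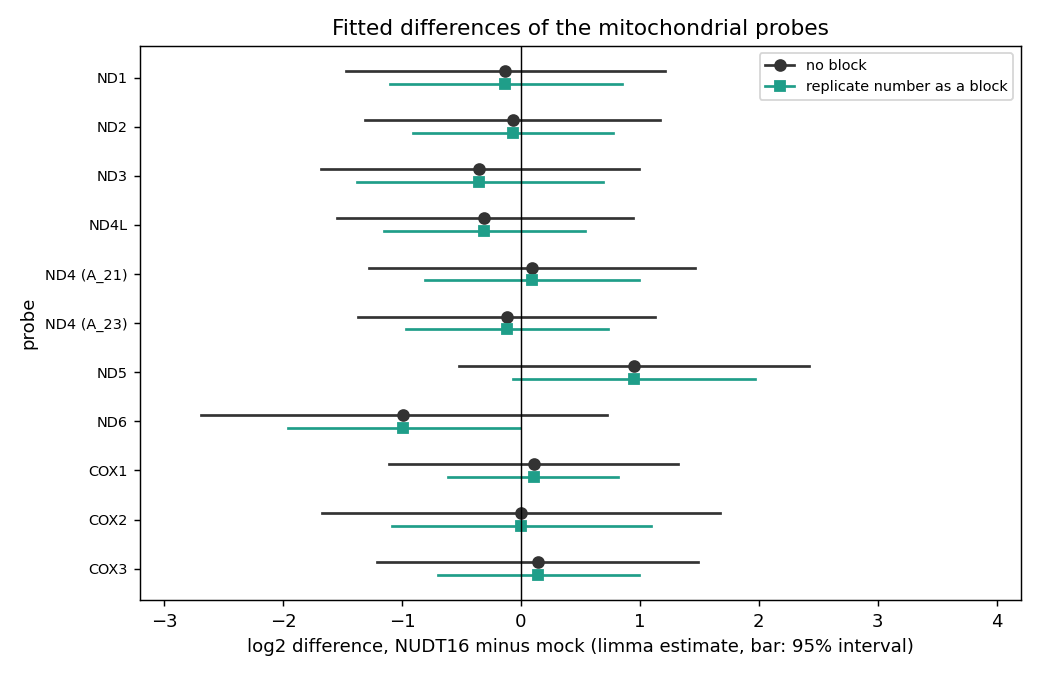
Fitted log2 difference, NUDT16 minus mock, for each probe, with 95% intervals, without a block (black circles) and blocked on replicate number (green squares). Every interval without the block includes 0; with the block that of ND6 runs from -1.96 to -0.01, and no probe passes after adjustment.

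Within pair 1 nearly all members lay on the same side of their mock partners, and in pairs 2 and 3 most lay on the other side. In pair 1 all 10 probes other than ND6 were higher in NUDT16, by 0.33 (ND4L) to 1.11 (COX2), and ND6 differed by -0.82. Of all tested probes 52.6% were higher in that pair, with a median of 0.04. In pair 2 the median of the 11 was -0.67 beside -0.09 over all tested probes, and 2 were higher, ND5 by 1.91 and COX1 by 0.00 after rounding, against 47.3% of all. In pair 3 the differences lay between -0.50 and 0.00, 1 was above 0 (COX2, by 0.00 after rounding) against 48% of all. The median was -0.17. The 10 members measured on all 6 arrays had medians of 0.7, -0.78 and -0.23 in pairs 1, 2 and 3. All 6582 probes so measured had 0.3, 0.17 and 0.08. No member was higher in all 3 pairs (0 of 11, against 20.2% of all tested probes). ND6 alone had the same sign in all 3 pairs (-0.82, -1.97 and -0.17), as 43% of all tested probes did. Each pair is 1 array against 1, so these values have no replicate check.

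Scaling shifted these counts. Without scaling, 9, 0 and 11 of the 11 probes were higher in pairs 1, 2 and 3, and the median of all tested probes was -0.31, -3.50 and 0.50. A shift of whole arrays cannot alter the members' order or their place relative to that median, which normexp background correction, quantile normalization and the authors' table can. In pair 1 the 10 probes other than ND6 were above that median with normexp and in the authors' table, and 9 were with quantile normalization. In pair 2 the members' place turned: 7 of 11 were above the median of all tested probes with quantile normalization and in the authors' table, against 2 with the shift and 1 with normexp. The members' median minus that of all tested probes was 0.07 and 0.13 in the former, and -0.58 with the shift. ND6 was the lowest of the 11 in pairs 1 and 2 with the shift and with each of the 3 others.

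**Figure D4:**
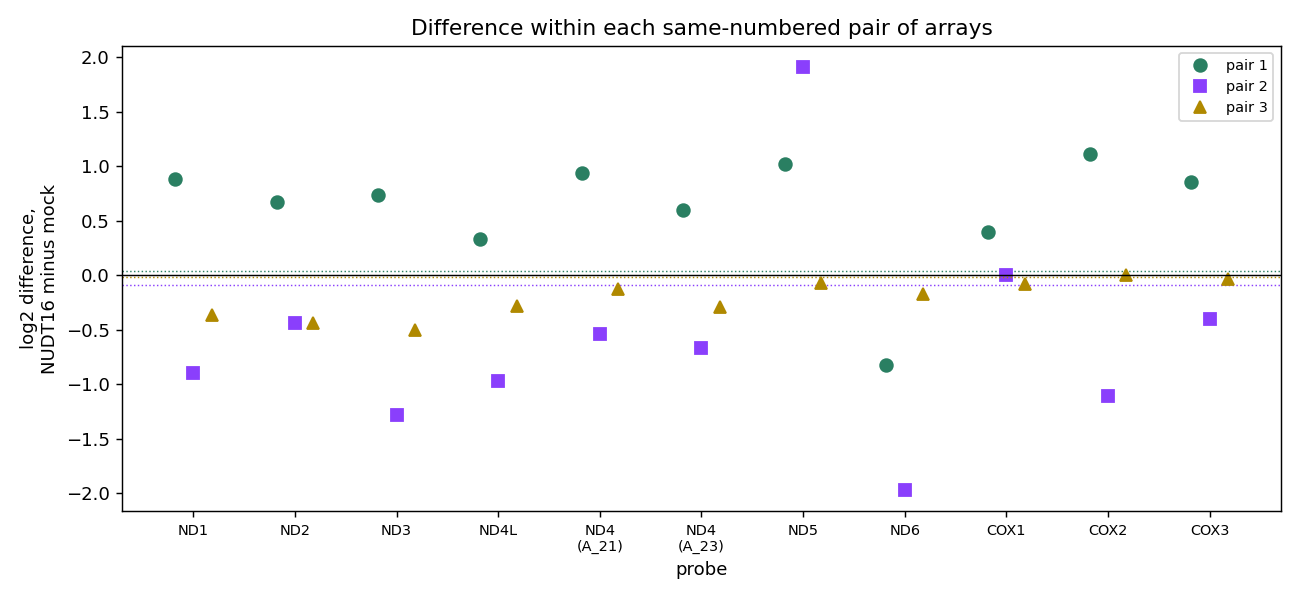
Scaled log2 difference, NUDT16 minus mock, for each probe within pairs 1, 2 and 3 (marker shape and colour); dotted lines are the medians of all tested probes in each pair. In pair 1 every probe except ND6 lies above 0, in pair 2 ND5 at 1.91 and ND6 at -1.97 are the extremes, and in pair 3 all lie between -0.50 and 0.00.

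The intensities show how far pair 2 departed. COX1 had intensities of 58700, 20500 and 49400 in mock and of 60500, 1910 and 66900 in NUDT16. ND4L had 79600, 47100 and 105000 against 78300, 2250 and 124000. On NUDT16 replicate 2 every member was dimmer than on its mock partner, by 41.9-fold for ND6, 25.9-fold for ND3, 10.7-fold for COX1 and 2.84-fold for ND5 before scaling. On the log2 scale these unscaled differences ran from -5.39 (ND6) to -1.51 (ND5), and the median over the 6582 probes measured on all 6 arrays was -3.25. The middle 90% of those probes lay between -5.43 and -1.13, so both genes were inside that range. In pairs 1 and 3 the unscaled differences of the members lay between -1.18 and 0.76.

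Other mitochondrially encoded messengers were not called either. CYTB, of complex III, and ATP6 and ATP8, of ATP synthase, gave 3 probes, all measured on all 6 arrays; the listed ribosomal RNA names RNR1 and RNR2 matched no probe. CYTB read 5.55, 3.92 and 4.61 in mock and 6.57, 4.44 and 4.77 in NUDT16 (difference 0.57, SE 0.71, limma adjusted p 0.999). It was above its partner in 3 of 3 pairs, unlike any member, where 20.2% of all tested probes were. ATP6 differed by -0.20 (SE 0.74) and ATP8 by -0.10 (SE 0.59). None of the 3 was called, and their median by pair was 0.76, -0.68 and -0.10, beside 0.74, -0.67 and -0.17 for the 11 members.

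Nuclear copies of the mitochondrial large ribosomal RNA (MTRNR2L1 to MTRNR2L10) had 12 probes, of which 10 were tested and 0 called. They are close copies of the mitochondrial gene, so the source of their signal is uncertain. Their median difference was -0.45 beside -0.02 over all tested probes, with 1 probe above 0 and 9 below. The pair medians were -0.08, -1.01 and -0.38. For the 7 measured on all 6 arrays the median difference was also -0.45, beside 0.25 over all probes so measured. MTRNR2L9 (-0.87, SE 0.67) and MTRNR2L8 (-0.72, SE 0.64) were the lowest by p, and 1 of the MTRNR2L2 probes was at 0.03 (SE 0.69).

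Nuclear genes for the same complexes, whose messengers carry an m7G cap, gave 44 tested probes for complex I and 12 for complex IV, with 0 called in either list (background 0.00563%). Over the 6582 probes measured on all 6 arrays the median difference was 0.25. All 12 complex IV probes were among these, as were 40 complex I probes, the latter with a median of 0.12. The complex IV genes had a median of 0.26, with 10 above 0 and 2 below. It was -0.43 with normexp, where that of all tested probes was -0.09. Without scaling it was -0.82 and with a median shift -0.45, following all tested probes (-1.10 and -0.73). Leaving out one array gave -0.21 (without mock replicate 3), 0.02 (without NUDT16 replicate 1), 0.69 (without mock replicate 2) and 0.73 (without NUDT16 replicate 3). Their pair medians were 0.63, -0.16 and 0.52. All 12 were above their partners in pairs 1 and 3, among them COX8A (difference 0.71, SE 0.72) and COX6B1 (0.58, SE 0.67), both small structural subunits; both COX5A probes were slightly below 0 (-0.14 and -0.21). The complex I genes had a median of 0.08, with 23 above 0 and 21 below, but the median was -0.48 with normexp and between -0.30 (without mock replicate 3) and 0.34 (without mock replicate 2) when one array was left out; without scaling (-1.01) and with a median shift (-0.63) it followed all tested probes. Their pair medians were 0.41, -0.52 and 0.20. NDUFB11 (0.82, SE 0.67) and NDUFA3 (0.69, SE 0.77) were highest by p, and NDUFS1 (-0.70, SE 0.63) and NDUFV2 (-0.60, SE 0.61) lowest. With replicates 1 and 3 alone and the block, NDUFB11 was called (difference 0.83, limma adjusted p 0.0496), as were 2.83% of all tested probes. Its SE there was 0.26, the same as for every member, so the call rests on the size of the difference and not on its own spread. In pair 3 the mitochondrial and nuclear genes of these complexes thus had scaled medians on opposite sides of 0, a difference that was not tested. The side of 0 depended on the scaling. Without scaling, the pair 3 medians over probes measured on all 6 arrays were all above 0. They were 0.30 for the mitochondrial members, 0.74 for nuclear complex I and 1.04 for nuclear complex IV, beside 0.60 over all probes so measured.

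Genes for mitochondrial transcription and RNA upkeep gave 22 tested probes with 0 called, 7 above 0 and 15 below, and a median of -0.40. Of these, 8 were measured on all 6 arrays, and over those the median was 0.28, where that of all probes so measured was 0.25. POLRMT, the mitochondrial RNA polymerase, differed by 0.83 (SE 0.82) and TBRG4, which takes part in mitochondrial messenger stability, by 0.76 (SE 0.76). Both were above their partners in 3 of 3 pairs, as were 20.2% of all tested probes. TFAM, which packages mitochondrial DNA and starts its transcription, differed by -0.72 (SE 0.80), and RG9MTD1, a subunit of mitochondrial RNase P, by -0.26 (SE 0.58). Every limma adjusted p among these was 0.999.

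RNA polymerase III transcripts are another class without an m7G cap. Of 9 probes, 5 were tested and 0 called. Their median difference was 0.51, with 5 above 0, but it was -0.43 without NUDT16 replicate 2, -0.01 with replicates 1 and 3 alone and the block, and -0.26 with normexp; with a median shift (-0.20) and without scaling (-0.58) it followed all tested probes. By pair it was 0.25, 1.14 and -0.43. The 4 measured on all 6 arrays had a median difference of 0.52, beside 0.25 over all probes so measured. RN7SL1, the RNA of the signal recognition particle, read 9.5, 10.86 and 10.52 in mock and 9.67, 12.68 and 10.05 in NUDT16 (difference 0.51, SE 0.79). RMRP differed by 0.68 (SE 0.88). In pair 2 these medians were 1.14 for the polymerase III RNAs and -0.67 for the mitochondrial members, a difference that was not tested. Whether signal of either class is carry-over past the antibody was not tested, since neither input nor a control precipitate was used here.

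**Figure D5:**
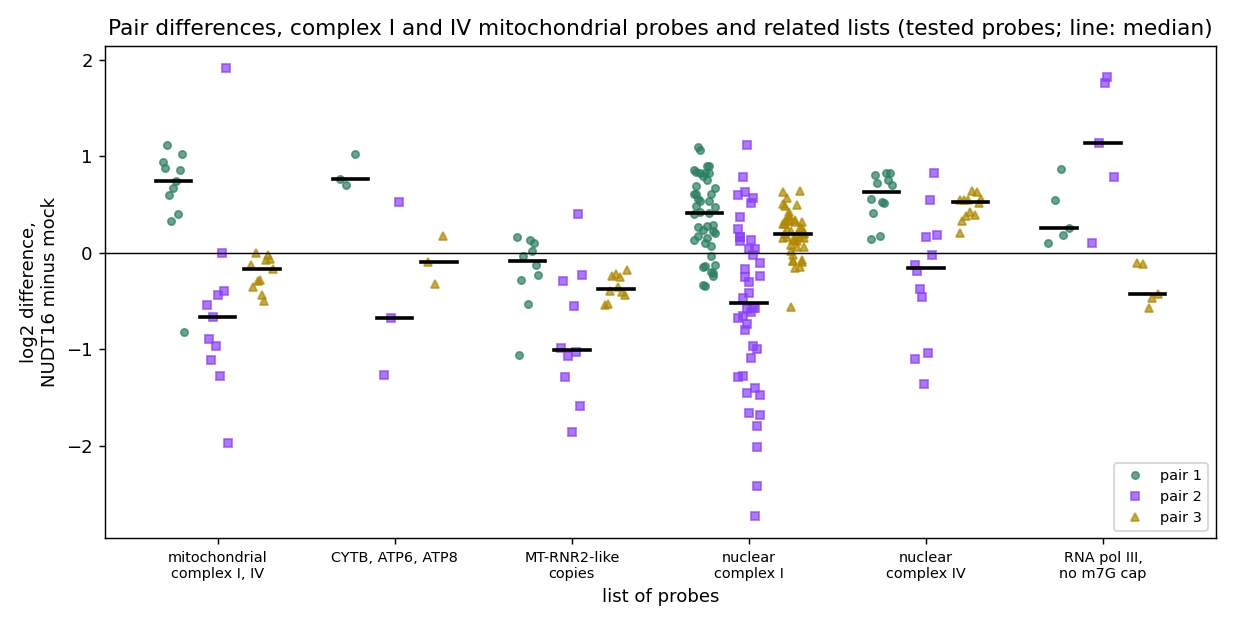
Scaled log2 difference, NUDT16 minus mock, of every tested probe of 6 lists within pairs 1 (circles), 2 (squares) and 3 (triangles); black lines are medians. The mitochondrial complex I and IV probes have medians of 0.74, -0.67 and -0.17, and the nuclear complex IV probes have medians of 0.63, -0.16 and 0.52.

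The probes whose course over the 6 arrays was most like the mean course of the 10 members measured on all of them were ATP8, UCK2, METTL13, COPS6 and SEPHS1. Likeness was the root-mean-square distance between centred log2 values, which was 0.0744 for ATP8, 0.0872 for UCK2 and 0.145 for SEPHS1. The median over the 6572 other probes measured on all 6 arrays was 0.715. Among the members the ND4 probe A_23_P315252 was closest to their mean (0.0597). COX2 (0.776), ND5 (0.852) and ND6 (1.24) were farther from it than that median.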

How the data were processed

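The 6 deposited scanner files give each spot's intensity on a linear scale. Per the file headers, Agilent Feature Extraction 10.7.3.1 subtracted and detrended the background of each array and put surrogates in place of spots not above it. Arrays were not normalized to each other, and surrogates compress differences among dim spots. The authors' deposited table holds log2 values, with its making not given in the sources used here; it ranked as median spot minus median background intensity (Spearman's rho 1 on each array) and served as an alternative.

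Control spots and outlier spots were left out, spots of a probe were averaged, and 13 probes without a usable spot were dropped. Log2 intensities were shifted by each array's 75th percentile. Probes with over 50% of usable spots well above background on all 3 arrays of a group entered the test (17765). It was run in R 4.3.3 through limma 3.58.1 (two-sided, Benjamini-Hochberg, threshold 0.05, no block), a procedure tested on simulated data. The simulated arrays were independent of each other, without the pairing described below. Every member probe is named. Of each related list the 2 probes of smallest p in each direction among those measured on all 6 arrays were named, as were the 5 genes of most similar course. For same-numbered arrays the deviations from their group's mean had correlations of 0.84, 0.39 and 0.77 over 17765 probes, so the numbers, which the titles give and slides follow, pair the arrays. Members and lists were chosen with earlier results of these data known. The number of arrays limits the precision. No genome or annotation on hg19 was used here. Alternatives were other background correction, scalings, filters, the block, replicates 1 and 3 alone, the authors' table and leaving out each array.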

Additional observations from a re-analysis of the deposited data

How the results depend on the processing

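No mitochondrial complex I or IV probe was called under any of the 16 alternatives run, the replicate block included, which also left their median at -0.07. The median was -0.71 with normexp background correction, -0.78 with a median shift and -1.16 without scaling, beside medians of all tested probes of -0.09, -0.73 and -1.10; the last pair shows a shift common to all probes, and the cause of the normexp value was not tested. Leaving out one array gave medians from -0.39 (without NUDT16 replicate 1) to 0.09 (without NUDT16 replicate 2). ND6 kept its sign in 16 of 16 alternatives (-2.07 to -0.25) and ND5 in 15 of 16 (-0.13 to 1.5), the -2.07 and the -0.13 both coming without scaling, where all tested probes had a median of -1.10, whereas COX2, at 0.00, did so in 7 of 16. Over all members and alternatives the lowest limma adjusted p was 0.195 (COX2, replicates 1 and 3 with the replicate block). Over the whole array limma called 0 probes with normexp (11 at an unadjusted p under 0.05), 0 with no scaling (1), 0 with no filter (225), 0 when probes had to pass on all 6 arrays (2) and 0 in the authors' table (10). It was 503 (2.83%) for replicates 1 and 3 with the block, where all members had the same SE of 0.26, and 1 whichever array was left out. The probe called with the replicate block was the same, NUDT16P1, so the block changed no call.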
